A study of Homo sapiens with 2 samples.

Results

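The genes described here lie on human chromosome 13, the chromosome that carries the retinoblastoma gene RB1, and were measured by RNA sequencing in 2 cultures of A172, an established glioblastoma cell line. The parental group is A172 kept without temozolomide (TMZ), the alkylating drug used against glioblastoma. The resistant group is a clone, labelled A172-r#6, that came through selection with TMZ and is labelled as kept with it. Each group holds 1 library made with a stranded mRNA kit, and the resistant group is 1 clone, so that clone, selection and drug exposure cannot be told apart. No value below has a replicate check, and no p-value was computed.

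Members were chosen by their level: 231 of the 265 chromosome 13 genes listed had at least 1 FPKM (a read level corrected for transcript length and library size) in either library. Of these, 5 were left out by name and 15 by the start or end of their names (long intergenic, antisense, zinc finger, mitochondrial carrier and ribosomal protein names), which left 211 members out of 15603 genes in the table. The chromosome was also picked out with its fold changes already known, so its shift is given as a description. The members nearest to the threshold from above were SPATA13 (0.940 FPKM in parental and 1.06 in resistant cells), KCTD12 (0.0626 and 1.08) and FAM124A (0.423 and 1.14). The nearest genes below it were EEF1A1P3 (0.865 and 0.968) and, nearer still, a pair of genes known only by clone names (0.290 and 0.999, and 0.939 and 0.974), and 27 genes with permitted names stayed below. In both libraries 188 members reached 1 FPKM, 9 did so in the parental library alone and 14 in the resistant library alone, and the sign of the fold of the latter groups was fixed by the rule.

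Chromosome 13 is a gene-poor acrocentric chromosome whose genes lie on its long arm. Its best known gene, RB1, encodes the pocket protein that binds E2F transcription factors and holds cells in G1 until cyclin-dependent kinases phosphorylate it. The gene is often lost in cancer, and loss within 13q is known from glioblastoma. When a stretch of a chromosome differs in copy number between related cells, many of its transcripts tend to shift a little in the same direction. DNA copy number was not measured here, and its part in the values was not tested.

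Both libraries had high levels of the mesenchymal filament gene VIM (632 FPKM in parental and 804 in resistant cells) and of CD44 (83.1 and 161). NES, the nestin gene of neural progenitors and glioma cells, went the other way with 33.7 and 5.08 FPKM. The astrocyte markers GFAP and S100B were not among the listed genes, so the glial label could not be checked with them. The endothelial gene PECAM1 (0.920 and 0.0225 FPKM), the leukocyte gene PTPRC (1.83 and 0.485) and the epithelial gene EPCAM (0.797 and 0.669) were low. A value of 0, which can be a failed estimate, stood for 111 genes in parental and 182 in resistant cells. Depth is unknown because only FPKM were used. In bulk RNA, fewer cells expressing a gene and less RNA per cell cannot be told apart.

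The shift of chromosome 13 was broad and small. Folds are log2 of (resistant FPKM + 1) over (parental FPKM + 1), a scale that understates the change of low genes. The median log2 fold of the 211 members was -0.23, which corresponds to a ratio of 0.854, beside 0.04 over all 13937 tested genes. A negative fold was found in 138 members (65.4%) and in 46.7% of all tested genes. The median level of the members was 7.26 FPKM in parental and 6.80 in resistant cells, while that of all tested genes was 8.42 and 8.79.

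The middle of the distribution was displaced more than its ends. Members lay below the other tested genes by 0.20 at the lower quartile, 0.27 at the median and 0.23 at the upper quartile of the log2 fold. The gap was 0.13 at the 10th and 0.09 at the 90th percentile, and 0.01 and 0.02 at the 5th and 95th. The interquartile range was 0.65 for the members and 0.68 for all tested genes. The number of members that differed at least 2-fold was near the background. It was 7 of 211 lower (3.32%), beside 3.82% of all tested genes, and 9 of 211 higher (4.27%), beside 4.59%. Of these, 3 of the 7 and 4 of the 9 reached 1 FPKM in 1 library alone. Over the 188 members at that level in both, the median was -0.24 and 129 were negative. At 1.5-fold, 40 members were lower (19.0%), beside a background of 12.0%, and 26 were higher (12.3%), beside 14.5%.

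**Figure D1:**
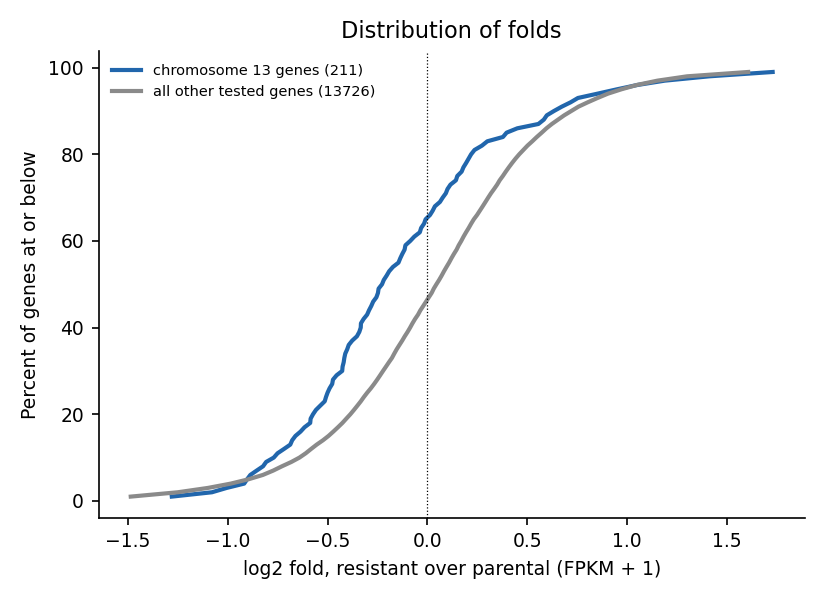
Cumulative distribution of the log2 fold (x axis) for the 211 chromosome 13 genes and the 13726 other tested genes, with the percent of genes at or below each value on the y axis. The curves lie apart in the middle, with medians of -0.23 and 0.05, and cross near both ends, so that members are at -1.28 and the others at -1.49 at the 1st percentile.

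In the authors' deposited table, 14 members (6.64%) were lower with a q-value under 0.05, beside 4.07% of all tested genes, and 9 (4.27%) were higher, beside 5.42%. With 1 library a side, such a q-value speaks of the pair of libraries and not of resistance, and the test behind it is not stated in the labels or headers. Among the 14 lower members, 8 were under 2-fold on the scale used here: ZMYM2, ZDHHC20, PDS5B, LMO7, FARP1, ARHGEF7, ATP11A and MCF2L. LMO7, a LIM-domain adaptor of cell junctions, had 66.0 FPKM in parental and 39.6 in resistant cells, with a q-value of 0.00192 in the authors' deposited table.

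Chromosome 13 had the lowest median of the 23 chromosomes compared. With every tested gene counted, the median log2 fold was -0.23 on chromosome 13 (231 genes, 65.8% negative). The nearest were chromosome 3 at -0.17 (783 genes, 63.1% negative) and chromosome 15 at -0.13 (456 genes, 62.1% negative). The highest was chromosome 7 at 0.15, with 38.3% negative. The share of negative folds on chromosome 13 was thus only a little above those on chromosomes 3 and 15. These differences between chromosomes were not tested.

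RB1 itself was close to the middle of its chromosome. RB1 (ENSG00000139687, plus strand, chromosome 13, 48303750 to 48481986 in the deposited locus and 48303726 to 48599436 in GENCODE 29 on GRCh38) had 19.2 FPKM in parental and 15.9 in resistant cells. Its log2 fold was -0.26, beside the members' median of -0.23, and its ratio without a pseudocount was 0.828. The q-value in the authors' deposited table was 0.785. RB1 transcript was therefore present in both libraries, at levels that differed by less than 1.5-fold.

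LPAR6, a receptor for lysophosphatidic acid, lies inside RB1 on the opposite strand and differed far more. It had 4.61 FPKM in parental and 0.494 in resistant cells (log2 fold -1.91, plain ratio 0.107), the lowest fold of any member above 0 in both libraries. LPAR6 was a member through the parental library alone, so the sign of its fold was fixed by the rule. The GENCODE 29 gene runs from 48389567 to 48444704, within RB1, and no exon of one overlaps an exon of the other. The deposited table gives both genes the same merged locus. Whether strand was used in counting is not given in the sources used here, so reads from RB1 introns cannot be set apart from those of LPAR6.

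The genes around RB1 did not all follow it. The 4 members before it and 6 after it, LPAR6 aside, held 7 negative and 3 positive folds. Among the positive folds, that of RP11-90M2.5 had its sign fixed by the rule. Before RB1, MED4, a Mediator subunit, had 14.6 and 10.6 FPKM in parental and resistant cells, while ITM2B, a transmembrane protein gene, had 25.5 and 29.8. After it FNDC3A had 15.1 and 10.6 FPKM, CDADC1 1.94 and 1.23, and CAB39L 2.89 and 1.86. SETDB2, a histone methyltransferase gene, had 3.08 and 4.36, in contrast to PHF11 beside it, a PHD finger gene, with 15.3 and 8.70.

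Ordered along the chromosome, the negative values were spread over its length. The members fell into 11 bins of 10 Mb, and all 9 bins with 5 or more members had a negative median, as had 12 of 14 bins of 5 Mb. Some of these medians were near 0 in other settings. That from 20 to 30 Mb turned to 0.027 with no filter on low values or with only members on a locus of their own. With a filter of 5 FPKM the bin from 50 to 60 Mb had -0.0155 and that from 90 to 100 Mb -0.0192, and the latter had -0.0042 with no filter. The bin from 70 to 80 Mb had a median of -0.38 (13 of 18 members negative) and that from 100 to 110 Mb -0.39 (12 of 18). The bin from 40 to 50 Mb, which holds RB1, had -0.27 (31 of 43). The bin from 20 to 30 Mb had the median nearest to 0, at -0.09 (18 of 34). In running medians of 15 adjacent members, 184 of 197 windows were negative, from -0.49 around COMMD6 to 0.14 around DNAJC3. Neighbouring windows share most of their members, so this is not a count of separate stretches.

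Each of the 9 bins nevertheless held genes of both signs. The longest stretch of negative members was 9, from UBAC2 to TMTC4 (99200773 to 100675093, median -0.42), and it holds TM9SF2, CLYBL, the transcription factor gene ZIC2 and PCCA. In this stretch RP11-214F16.8, CLYBL and GGACT reached 1 FPKM in parental cells alone, so their negative signs were fixed by the rule. The longest stretch of positive members was 7, from ABHD13 to ANKRD10 (108218378 to 110915069, median 0.18), with IRS2, NAXD, CARS2 and ING1 inside. Across the 210 pairs of adjacent members the folds had a Spearman correlation of 0.18. Over the other 21 autosomes, counted the same way with every tested gene, it ran from -0.04 to 0.21 with a median of 0.14. Adjacent genes can share promoters and overlapping reads. The first member by position was FAM230C (2.04 and 1.56 FPKM) and the last CHAMP1, a gene of chromosome alignment at mitosis (12.6 and 8.57).

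**Figure D2:**
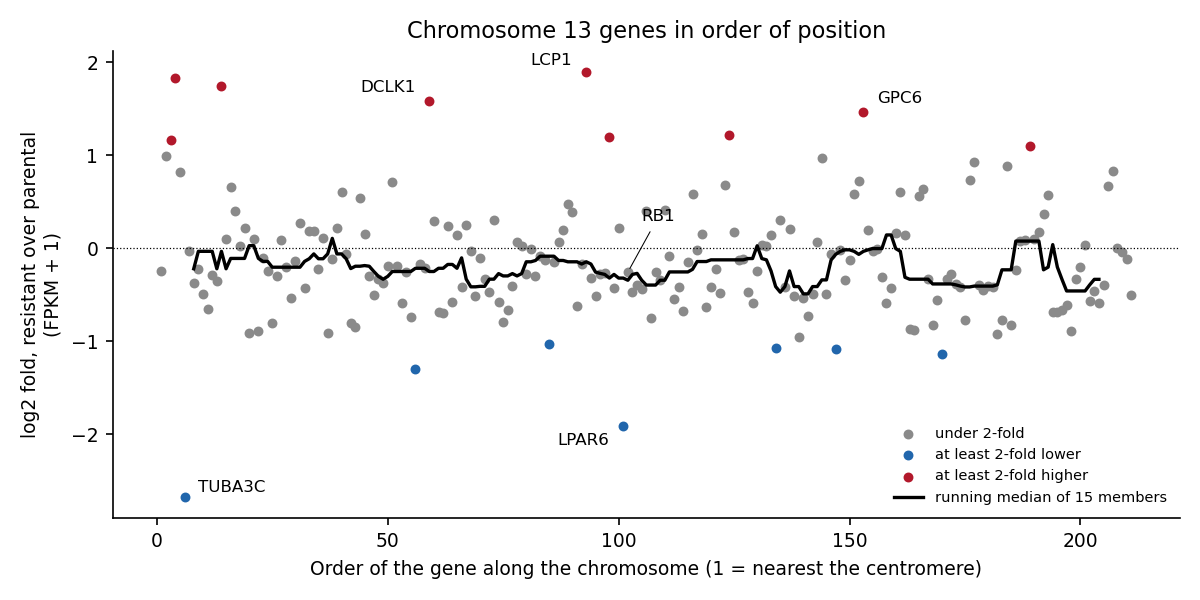
Log2 fold of each of the 211 genes (points, y axis) in order along chromosome 13 (x axis), coloured by whether they differed at least 2-fold, with the running median of 15 adjacent genes as a line. The line stays below 0 for 184 of 197 positions, where neighbouring positions share most of their genes, and TUBA3C and LPAR6 are the lowest points.

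The shift was found at most levels and kinds of transcript. All tested genes were divided into 4 equal quartile groups by mean FPKM. In the lowest group the members' median was -0.13 (57 members) and that of the other genes -0.08. In the third group it was -0.34 (56 members, 45 of them negative) beside 0.07, and in the highest -0.33 (35 members) beside 0.10. The gap between members and other genes was thus 0.05 in the lowest group and 0.43 in the highest.

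Chromosome 13 transcripts are richer in A and T than most, with a median GC content of 42.1% for the longest transcript of each member against 47.9% for all tested genes. The members' median log2 fold was -0.21 in the lowest quartile group of GC content (102 members) and -0.27 in the second (73 members), where other genes had 0.05 in both. In the third group the 29 members had 0.04, beside 0.02 for other genes, and in the fourth the 7 members had -0.33, beside 0.06. Over quartile groups of transcript length the members' median ran from -0.38 for the shortest (32 members) to -0.19 in the third group (65 members), and other genes had 0.00 to 0.06.

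**Figure D3:**
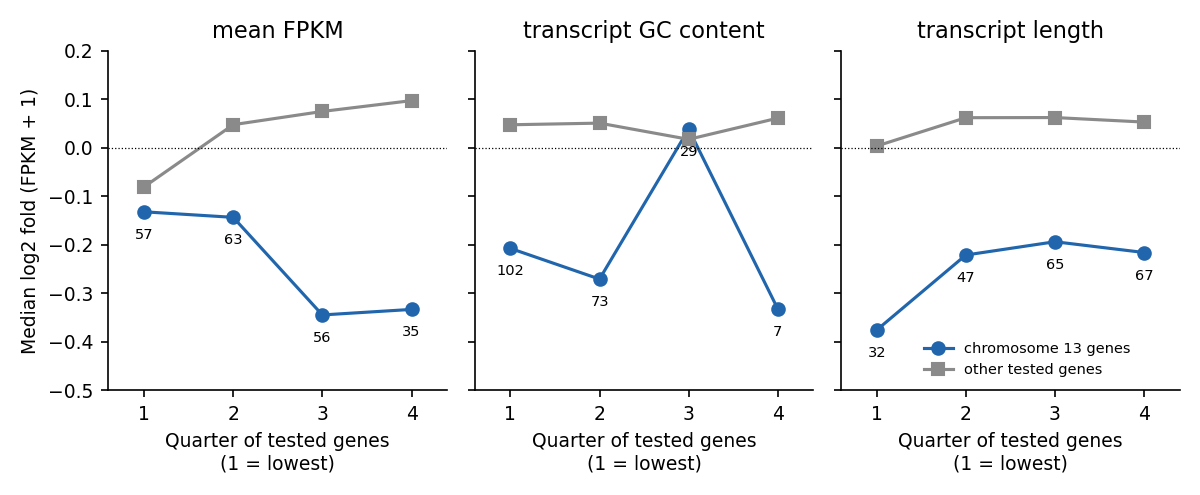
Median log2 fold (y axis) of chromosome 13 genes (circles, with their number beside each) and of the other tested genes (squares) in quartile groups of mean FPKM, transcript GC content and transcript length (x axis). The circles lie below the squares in 11 of 12 groups, the exception being the third group of GC content.

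The 187 protein-coding members had a median log2 fold of -0.22 (125 negative) and the 18 noncoding RNAs other than pseudogenes -0.35 (13 negative). Of 6 pseudogenes, 4 in the stretch nearest to the centromere were members through the resistant library alone, so that their positive folds were fixed by the rule. The others, SLC35E1P1 (3.41 and 3.72 FPKM) and RCN1P2 (1.16 and 2.01), were also higher in resistant cells. Of the former RHOT1P3 was listed at 0 in parental and at 2.55 FPKM in resistant cells, and ANKRD20A9P had 0.216 and 1.73. These values are uncertain, since pseudogenes share reads with their parent genes. Also listed at 0 in the parental library were RNU2-7P (2.35 FPKM in the resistant one) and RP11-90M2.5 (1.30). TUBA3C, an alpha-tubulin gene with near-identical copies elsewhere, was listed at 5.36 FPKM in parental and at 0 in resistant cells. Its sign too was fixed by the rule.

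Of the 211 members, 163 are in at least 1 of 12 lists of roles. The counts of every list below stand beside 65.4% negative over all members. Over all tested genes, 3.82% were at least 2-fold lower and 4.59% higher. The 21 cell cycle and mitosis genes had a median of -0.30, with 15 negative. At least 2-fold lower was 1, beside 3.82% of all tested genes, and none was 2-fold higher, beside 4.59%. BORA, which activates Aurora and Polo-like kinases at entry into mitosis, had 4.13 FPKM in parental and 1.44 in resistant cells (-1.07). PDS5B, which regulates cohesin, had 10.6 and 5.96 (-0.74), and CCNA1, the germline A-type cyclin, 2.11 and 0.919 (-0.70). CCNA1 was a member through the parental library alone, so its sign was fixed by the rule. On the other side NEK3, a NIMA-related kinase, had 1.48 and 2.96 (0.68). TFDP1, the partner that E2F factors need to bind DNA, had 20.9 and 15.7 (-0.39), and CDK8, the Mediator kinase, 7.26 and 8.37 (0.18).

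BORA starts only 62 bp from MZT1, a gene of the gamma-tubulin ring complex that is read in the opposite direction, and the pair diverged. MZT1 had 12.8 FPKM in parental and 14.2 in resistant cells (0.14), so BORA was lower by 1.21 on the log2 scale relative to its neighbour. Exons of BORA overlap those of DIS3 on the opposite strand in the annotation, which makes its value less certain. The promoter window of BORA is printed because it covers the stretch between both GENCODE 29 starts. It lies at chr13:72727673-72727972 (GRCh38.p14, plus strand, RefSeq), from 250 bases before to 50 after the RefSeq start. The GENCODE 29 start of BORA, from which the 62 bp were counted, is at 72727749, farther upstream. Capitals mark TTTGAA, a form of the cell cycle homology region, and CCAAT, on either strand (TTCAAA and ATTGG where reversed). Other forms of that region were not searched or marked.
BORA: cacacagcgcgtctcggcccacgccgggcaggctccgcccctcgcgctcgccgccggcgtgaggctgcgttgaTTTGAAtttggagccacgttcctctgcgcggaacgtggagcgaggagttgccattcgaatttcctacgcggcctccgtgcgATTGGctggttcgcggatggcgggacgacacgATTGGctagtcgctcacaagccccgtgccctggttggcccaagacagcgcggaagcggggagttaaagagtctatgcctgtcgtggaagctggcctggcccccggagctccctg
The window holds TTTGAA once and CCAAT, as its reverse complement, at 2 places, and it has 35 CG dinucleotides against a median of 14 over all windows. Counted from the GENCODE 29 start of BORA, TTTGAA spans the start and both CCAAT places lie inside the gene. In RefSeq promoter windows of the same length, 15.2% of 35116 hold TTTGAA, 34.6% hold CCAAT and 5.90% hold both. In the 259 windows of the 169 members that matched by symbol the shares were 12.7%, 34.7% and 5.02%. A match is a description of letters and not of a bound factor.

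Other pairs that start close together were compared in the same way. Among members, 21 pairs on opposite strands start within 1000 bp of each other, with a median difference of 0.21 between their log2 folds. Both were negative in 12 pairs, both positive in 2 and of opposite sign in 7. Since most members were negative, shared signs are common in any pairing, and COMMD6 and KDELC1 each stand in 2 of the pairs. DCUN1D2 and TMCO3, which start 43 bp apart, had folds of -0.57 and -0.58, and HMGB1 and USPL1, 96 bp apart, -0.50 and -0.33. The difference of BORA and MZT1 was the largest of the 21, and the next was 0.84, between CAB39L and SETDB2. Some pairs overlap at their first exons, and those reads cannot be assigned without strand.

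Among 10 DNA repair and replication genes, 8 were negative (median -0.19), beside 65.4% of all members. None differed 2-fold, beside 3.82% lower and 4.59% higher over all tested genes. ERCC5, the endonuclease that cuts 3′ of bulky lesions in nucleotide excision repair, had 19.5 FPKM in parental and 11.01 in resistant cells (-0.77). Its value is uncertain, since it shares exons with the readthrough gene BIVM-ERCC5 (5.92 and 2.66). HMGB1, a chromatin protein that bends DNA, had 31.0 and 21.5 (-0.50). RFC3, a subunit of the clamp loader, had 9.28 and 8.11. ING1, a reader of histone methylation, had 2.12 and 3.03, and the exosome nuclease DIS3 had 6.78 and 8.56.

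The 20 transcription and chromatin genes had a median of -0.37, with 14 negative. TSC22D1, a leucine zipper factor responsive to TGF-beta, had 37.6 FPKM in parental and 17.9 in resistant cells (-1.03). GTF3A, which RNA polymerase III needs for 5S ribosomal RNA, had 33.5 and 17.3 (-0.92), in exons partly shared with MTIF3 on the opposite strand. SAP18, a subunit of the SIN3 deacetylase complex, had 28.6 and 14.7 (-0.91). POLR1D, a subunit shared by RNA polymerases I and III, went the other way with 12.7 and 19.8 (0.60). The 19 RNA processing and export genes were balanced, with 10 negative and a median of -0.02. ARGLU1, an arginine and glutamate rich splicing cofactor, was their lowest (18.0 and 9.72) and the importin KPNA3 their highest (16.3 and 22.0).

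Among the genes of protein handling, 13 of 14 in folding, secretion and glycosylation were negative, with a median of -0.42. DNAJC3, a chaperone of the endoplasmic reticulum that restrains the kinase PERK, had 15.6 FPKM in parental and 10.04 in resistant cells. COG3, a subunit of a Golgi tethering complex, had 11.04 and 6.80, and TMTC4 2.80 and 1.23. None of the 14 differed 2-fold, beside 3.82% lower and 4.59% higher over all tested genes. TGDS, at 6.97 and 8.13, was the exception in sign. Of 20 genes of ubiquitin and protein turnover, 14 were negative (median -0.33). MYCBP2, a very large ubiquitin ligase, had 21.7 and 9.71 (-1.08), and POMP, the chaperone of proteasome assembly, 94.0 and 53.3 (-0.81). KCTD12, an auxiliary subunit of GABA-B receptors, had 0.0626 and 1.08 and was a member through the resistant library alone.

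The signalling genes spread in both directions around a median of 0.00, with 10 of 21 negative. At least 2-fold higher were 2, beside 4.59% of all tested genes, and at least 2-fold lower 2, beside 3.82%. STARD13, a GTPase-activating protein, had 10.2 FPKM in parental and 3.54 in resistant cells (-1.30), and LPAR6 was the other. DCLK1, a doublecortin-like kinase of microtubules, had 3.27 and 11.8 (1.58), and IRS2, an adaptor of the insulin and IGF receptors, 1.40 and 4.13 (1.09). GAS6, the ligand of the TAM receptor kinases, had 19.8 and 32.1 (0.67). Guanine nucleotide exchange factors differed in sign. FARP1 had 26.7 and 14.1 (-0.87), and MCF2L (-0.89) and ARHGEF7 (-0.69) were negative too. DOCK9, which acts on CDC42, had 26.5 and 41.7 (0.63), and SPATA13 was near 0 (0.09).

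The 8 adhesion, cytoskeleton and matrix genes had the highest median of the 12 role lists, at 0.82. This median lies midway between ITGBL1 (0.93) and FRY (0.72), and FRY is a member through the resistant library alone. At least 2-fold higher were 3 of the 8 genes, beside 4.59% of all tested genes, and none of these 8 was 2-fold lower. The list does not hold every such gene of the chromosome, since names were left out by the rule and some genes stand in other lists. Among these are LMO7 (-0.72), WASF3 (-0.22) and DIAPH3 (0.03). The alpha-tubulin gene TUBA3C (-2.67), at least 2-fold lower with its sign fixed by the rule, stands in no role list. The median and the counts of this list thus depend on which genes were put in it. LCP1, the actin-bundling protein L-plastin best known from leukocytes, had 1.17 FPKM in parental and 7.07 in resistant cells (1.89, plain ratio 6.03). Leukocyte PTPRC, given above, had 1.83 FPKM in parental and 0.485 in resistant cells, and which cells gave the LCP1 reads was not tested. GPC6, a heparan sulfate proteoglycan of the cell surface, had 4.92 and 15.3 (1.46), THSD1, a thrombospondin-repeat membrane protein, 1.66 and 5.16 (1.21), and ITGBL1, an integrin-like secreted protein, 5.47 and 11.3 (0.93). THSD1 shares exons with VPS36 on the same strand. The remaining members were FRY (0.634 and 1.68), whose sign was fixed by the rule, and LHFP, FNDC3A and the metabolic gene CRYL1, which were negative.

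**Figure D4:**
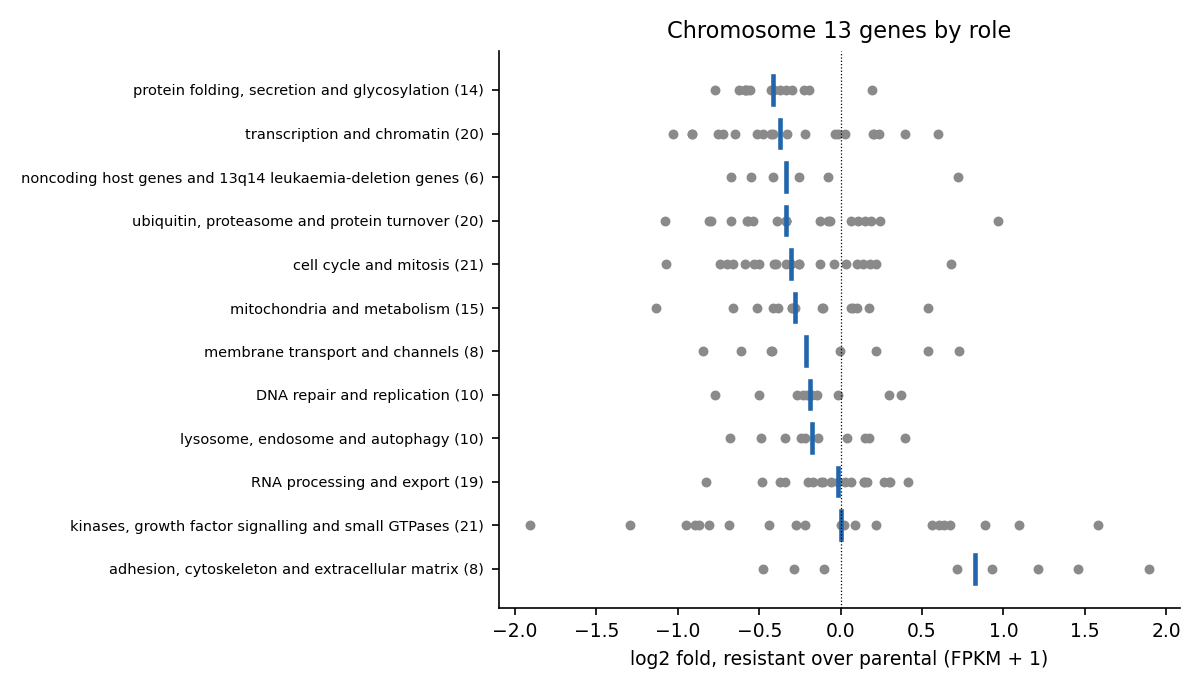
Log2 folds (x axis) of chromosome 13 genes in 12 role lists (rows, with the number of measured genes), 1 point per gene and a bar at each median. Medians lie from -0.42 to 0.00 in 11 lists, and that of the adhesion and matrix list is 0.82.

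Of 15 genes of mitochondria and metabolism, 10 were negative (median -0.28). CLYBL, a citramalyl-CoA lyase, had 3.21 FPKM in parental and 0.918 in resistant cells (-1.13), and MTRF1, a mitochondrial release factor, 7.36 and 4.28. CLYBL was a member through the parental library alone, so its sign was fixed by the rule. ESD, an S-formylglutathione hydrolase, had 49.6 and 34.5. Of 10 lysosome, endosome and autophagy genes, 6 were negative (median -0.18), with SPG20, the spartin gene, at 31.0 and 19.0. Of 8 transporters and channels, 5 were negative (median -0.21). SLC46A3, a lysosomal transporter, had 15.6 and 8.25, ATP11A, a phospholipid flippase, 14.3 and 8.995, and SLC7A1, the carrier of cationic amino acids, 27.1 and 39.8.

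The abundant members did not move as one. TPT1, which encodes translationally controlled tumour protein, was the highest of all, at 165 FPKM in parental and 217 in resistant cells (0.39). LAMP1, a major lysosomal membrane protein, had 85.5 and 87.8 (0.04), and its sign turned to -0.01 with the libraries scaled to a median log2 fold of 0. ANKRD10 had 66.1 and 98.8 (0.57), MBNL2, a splicing regulator, 67.3 and 75.6, and POMP was lower. TPT1 and MBNL2 were thus above the members' median fold, and POMP below it. TPT1, FARP1 and GAS6 have exons that overlap another gene on the opposite strand, and LMO7 and FRY on the same strand, which makes their values less certain.

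**Figure D5:**
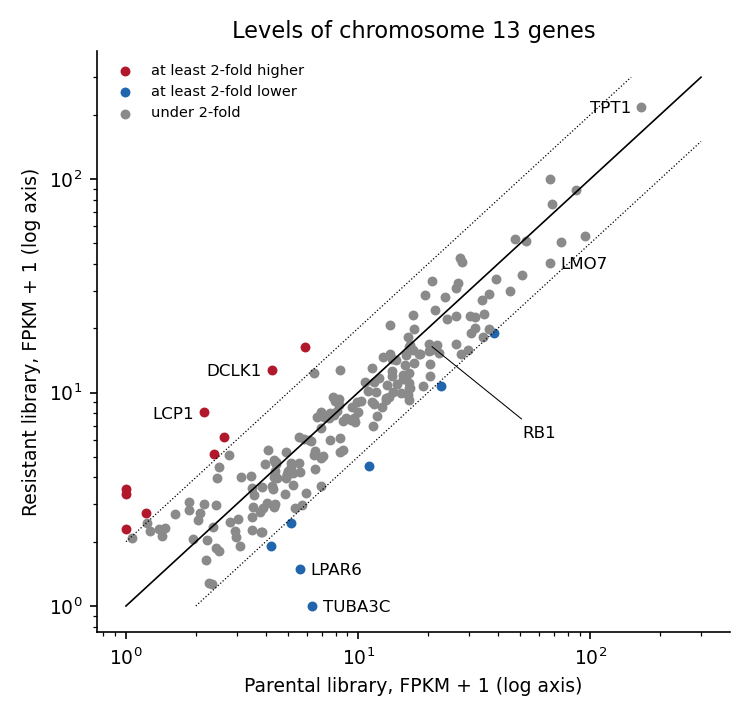
FPKM + 1 of the 211 genes in the parental (x axis) and resistant (y axis) library, both on log axes, with the line of equality and dotted lines at 2-fold. Most points lie just below equality, and 7 lie beyond the lower and 9 beyond the upper dotted line.

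The 13q14 region next to RB1 that is deleted in chronic lymphocytic leukaemia, and the oncogenic microRNA cluster of 13q31, are read here only through their host transcripts. DLEU2, which carries miR-15a and miR-16-1, had 3.04 FPKM in parental and 2.03 in resistant cells, its neighbour DLEU1 3.40 and 2.01, and TRIM13, a ubiquitin ligase that shares the locus, 7.60 and 4.405. MIR17HG, the host of the miR-17-92 cluster, had 0.868 and 2.08 (0.72). MIR17HG reached 1 FPKM in resistant cells alone, so its sign was fixed by the rule, and the other 5 genes of this list were negative. The mature microRNAs were not measured. A pair from each host is printed from RefSeq (GRCh38.p14) to show the seed that each pair shares, with the seed (bases 2 to 8) in capitals.
hsa-miR-15a-5p: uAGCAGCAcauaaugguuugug
hsa-miR-16-5p: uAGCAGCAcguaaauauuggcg
hsa-miR-17-5p: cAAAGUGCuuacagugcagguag
hsa-miR-20a-5p: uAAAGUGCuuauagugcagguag
The first pair lies at chr13:50049167-50049188 and chr13:50049027-50049048 on the minus strand, inside DLEU2. The second pair lies at chr13:91350618-91350640 and chr13:91351072-91351094 on the plus strand, inside MIR17HG. The latter cluster also holds microRNAs of other seeds.

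The partners of RB1 on other chromosomes were split. Of 10 measured pocket proteins, E2F factors and their DNA-binding partner, 4 were negative and E2F7 was at least 2-fold higher, with 10.3 FPKM in parental and 28.9 in resistant cells (1.40). The pocket protein genes RBL1 (2.58 and 2.76) and RBL2 (26.7 and 22.3) had log2 folds of 0.07 and -0.25. Of 11 cyclins, kinases and inhibitors, CCND1 (61.7 and 146) and the inhibitor CDKN1A (56.7 and 155) were at least 2-fold higher, and the CDK4 and CDK6 inhibitor CDKN2C was at least 2-fold lower (24.7 and 7.12). Of 18 E2F target genes, 13 were negative with a median of -0.20 and none differed 2-fold. PCNA was the lowest (66.5 and 33.8) and CDC6 the highest (9.63 and 16.6). Over all tested genes 46.7% were negative, 3.82% at least 2-fold lower and 4.59% at least 2-fold higher.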

How the data were processed

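RNA of 1 parental and 1 resistant library was compared. The authors deposited FPKM per gene, and p-values and q-values of their own comparison, per the file headers. No label or header names the aligner, the quantification tool, the build or the use of strand. All 211 member identifiers were found in GENCODE 29 (GRCh38), and the deposited locus contained the GENCODE gene for 195 of them. Loci of overlapping genes were merged before deposit. Members and lists were chosen with earlier results of these data known. Folds used a pseudocount of 1, and genes with 1 FPKM or more in either library were tested. A difference of at least 2-fold was called. Length and GC content, taken from the longest GENCODE transcript, covered 99.6% of tested genes. Named members were RB1, the first and last by position, the 10 highest and 10 lowest folds at 5 FPKM or more in the higher library, the 5 most abundant, those at 0 in 1 library, and up to 4 per role list. Other named genes, the adjacent pairs and the motifs were chosen after values were seen. Alternatives covered the pseudocount, scaling, filters, thresholds and bin width. Work was done in Python 3.11.15 with pandas 2.3.3 and scipy 1.17.1. The values of 1 named member are not reported here.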

Additional observations from a re-analysis of the deposited data

How the results depend on the processing

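The median log2 fold of the members stayed negative in the 9 alternatives run for it, from -0.30 to -0.20. Its difference from the other tested genes stayed negative in 11, from -0.36 to -0.24. Counts of members at least 2-fold lower and higher moved from 7 and 9 to 16 and 20 with a pseudocount of 0.1, to 16 and 21 with 0.01, to 4 and 4 of 133 with a filter of 5 FPKM, and to 4 and 5 of 141 with only members on a locus of their own. With protein-coding members only, 5 were higher. At 1.5-fold the counts were 40 and 26, and at 4-fold 1 and 0. Over all tested genes the lower and higher shares were 7.38% and 7.72% with a pseudocount of 0.1, 7.77% and 8.14% with 0.01, 2.94% and 4.85% with the filter of 5 FPKM, 3.81% and 4.59% for own loci, 12.0% and 14.5% at 1.5-fold, and 0.423% and 0.438% at 4-fold. In bins of 5 Mb, 12 of 14 medians were negative. The bin from 20 to 30 Mb turned positive, to 0.027, with no filter on low values and with only members on a locus of their own. LAMP1 turned to -0.0094 with scaling to a median of 0 and to -0.0417 with equal upper quartiles. No other of the 64 named members' folds changed sign under these scalings and pseudocounts. No paired analysis was possible because each group holds 1 library. Without replicates or depth, no error can be given for any gene.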
